A study of Homo sapiens with 8 samples.

Results

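ERK output and feedback genes are the genes whose transcription follows the activity of the kinase ERK, and 10 of them were followed here, of 27475 human genes in the deposited tables: the phosphatases DUSP4, DUSP5 and DUSP6, the inhibitors SPRY2, SPRY4 and SPRED1, the transcription factors ETV4, ETV5 and FOSL1, and PHLDA1. They were chosen by name, and all 10 were found and were above 0 TPM in every library. RNA-seq was performed on RT112 and UM-UC-3, both established human bladder cancer cell lines, with 2 libraries in each of 4 groups. PAI-1 was depleted with 3 pooled siRNAs (siPAI-1), and control cells received 3 pooled scrambled siRNAs (Scr). In both cases 100 pmol were delivered by the same transfection reagent, and the transfection ran for 72 h. The lines were grown in RPMI or DMEM, and the labels do not say which line had which medium. A difference between the lines therefore cannot be told apart from one between their media. No group is untransfected.

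In the RAS-ERK cascade, a receptor such as FGFR3 or EGFR loads RAS with GTP, RAS activates RAF, RAF activates MEK, and MEK phosphorylates ERK. Active ERK induces genes that act back on it. DUSP6 removes phosphate from ERK in the cytoplasm, DUSP4 and DUSP5 are nuclear phosphatases, and Sprouty and Spred proteins hold back signalling between the receptor, RAS and RAF. Other targets pass the signal on. ETV4 and ETV5 are ETS transcription factors of the PEA3 family, FOSL1 encodes FRA-1, a subunit of AP-1, and PHLDA1 is a pleckstrin homology-like protein that is induced by growth factors. These transcripts are widely read as a signature of ERK activity in tumour cells. ERK itself was not measured in these files.

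Levels are given in TPM, a unit in which reads are divided by gene length and each library has the same sum, so that levels of different genes can be compared within a library. In such bulk values, fewer cells with a transcript and less of it per cell cannot be told apart. Fold changes and standard errors (SE) are on the scale of log2(TPM + 0.1), and a gene is called where limma's adjusted p (Benjamini-Hochberg, over all genes tested) was under 0.05. The labels do not say that the 2 libraries of a group came from separate cultures, while the study's text speaks of independent replicate experiments for the knock-down, in a number that is not that of the libraries here. The p-values measure the spread between these libraries only. An exact permutation test of 2 against 2 libraries cannot go below p = 0.333, and none was used.

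The depth estimated from the FPKM values was 29.3 to 34.3 M reads (M for mega) per library. RT112 expressed 13 of 13 epithelial or urothelial markers at a mean of at least 1 TPM (summed level 13765 to 14050.2 TPM with Scr) and UM-UC-3 only 6 of 13 (228 to 246 TPM), while all 6 mesenchymal markers passed this level in UM-UC-3 (3255 to 3534 TPM) and 3 of 6 in RT112 (139 to 148 TPM). VIM alone made up most of the UM-UC-3 sum (2997 TPM), and FN1 and CDH2 went the other way, at 117 and 19.4 TPM in RT112 against 67.4 and 9.92 TPM (adjusted p = 0.00248 and 0.00621, limma). Leukocyte markers summed to at most 0.63 TPM and endothelial markers to at most 2.35 TPM in any library. Fibroblast markers summed to 17.7 to 25.6 TPM in RT112 and to 133 to 152 TPM in UM-UC-3, where nearly all of it was COL3A1 (142 TPM with Scr), while LUM was higher in RT112 (12.9 against 0.535 TPM, adjusted p = 0.00762, limma). One library stood apart, RT112 siPAI-1 replicate 1, whose mesenchymal markers summed to 72.8 TPM against 135 TPM in replicate 2. Results that change with it are given with and without it.

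With Scr, RT112 and UM-UC-3 expressed all 10 genes but in different proportions. DUSP6 and ETV4 were higher in RT112, and FOSL1, SPRY4, DUSP4 and SPRY2 were lower (4.80-fold, 3.85-fold, 4.25-fold, 4.10-fold, 1.71-fold and 1.57-fold). The other 4 genes, DUSP5, SPRED1, ETV5 and PHLDA1, were not called. The lines differ widely: of 19201 genes tested, 51.6% were called, 25.3% higher and 26.3% lower in RT112, against 6 of the 10 genes. The share of all genes also covers genes near 0 TPM. Of the genes tested, 12769 had a mean of at least 1 TPM, as all 10 genes had. The share called among these 12769 is not given here, so 6 of 10 is a description. Past 2-fold, 4 of the 10 were called (DUSP6, ETV4, FOSL1 and SPRY4), against 32.1% of all genes. The RT112 and UM-UC-3 libraries did not overlap for any of the 10 (2 higher and 8 lower), as was so for 72.3% of all genes tested, 34.6% higher and 37.7% lower, and for 84.8% of genes whose mean reached 1 TPM. The median log2 fold change was -0.52 over the 10 genes and -0.057 over all genes. In the libraries with siPAI-1, which are other libraries of the same lines, 9 of the 10 genes were called, 2 higher and 7 lower, in the same directions (52.2% of 19359 genes were called, 26.2% higher and 26.1% lower). Only DUSP5 was not called there, and again the libraries of the lines did not overlap for any of the 10 genes (73.7% of all genes).

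**Figure D1:**
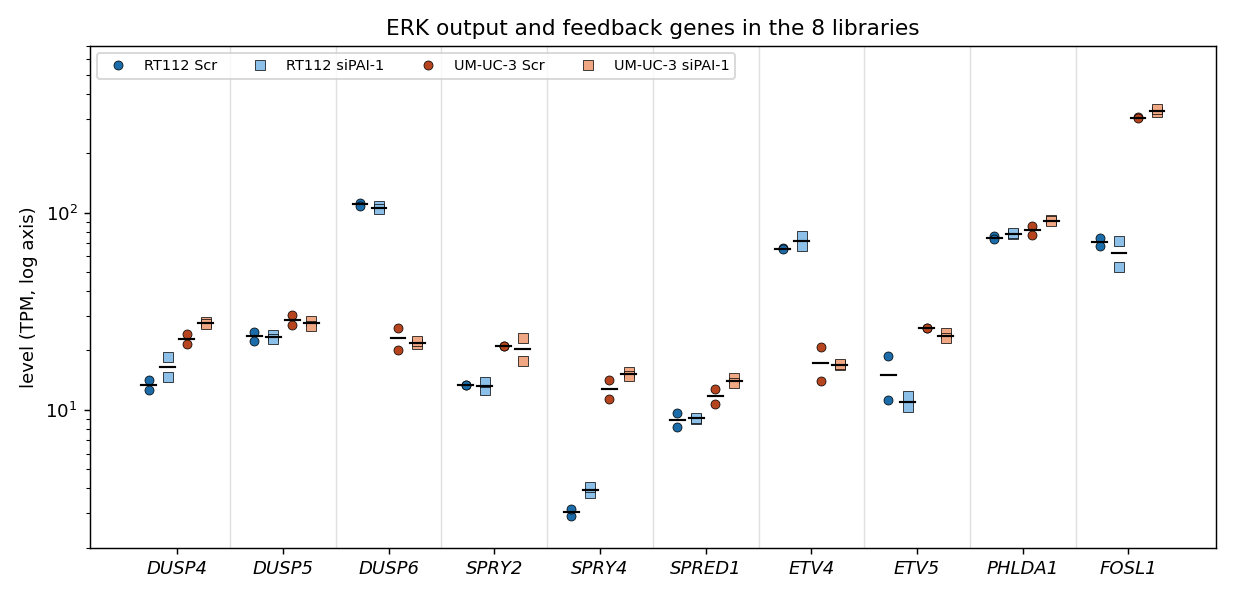
Level in TPM (log axis) of each of the 10 genes in the 8 libraries, with circles for Scr, squares for siPAI-1, blue for RT112, red for UM-UC-3 and a black line at each group mean of 2 libraries. DUSP6 and ETV4 are higher in all RT112 libraries, SPRY4 and FOSL1 are lower in all of them, and PHLDA1 and DUSP5 lie close together.

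DUSP6 and SPRY4 differed by more than 4-fold between the lines in opposite directions, although both are feedback inhibitors of the same cascade. Their promoter windows, 250 bases before to 50 bases after an annotated start site (RefSeq, GRCh38.p14), show the sequence from which these transcripts can begin. Capitals mark GGAAG, the core of ETS sites, or GGGCGG, the GC box, on either strand, so that CTTCC is a GGAAG of the other strand. Both motifs were chosen after the sequences had been looked at. The windows are chr12:89352452-89352751 for DUSP6 and chr5:142324198-142324497 for SPRY4, both on the minus strand and written in the direction of transcription. On this strand the outermost start has the highest coordinate. The DUSP6 window holds it (89352501). SPRY4 is annotated up to 142325021, beyond its window, so that window belongs to an inner start. The outermost start of SPRY4 was not looked at.
DUSP6: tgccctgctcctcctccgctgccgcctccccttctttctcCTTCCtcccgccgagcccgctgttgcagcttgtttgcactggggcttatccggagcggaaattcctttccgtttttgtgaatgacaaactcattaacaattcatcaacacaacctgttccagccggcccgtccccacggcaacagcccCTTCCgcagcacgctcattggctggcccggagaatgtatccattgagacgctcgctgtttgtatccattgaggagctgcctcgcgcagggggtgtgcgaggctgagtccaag
SPRY4: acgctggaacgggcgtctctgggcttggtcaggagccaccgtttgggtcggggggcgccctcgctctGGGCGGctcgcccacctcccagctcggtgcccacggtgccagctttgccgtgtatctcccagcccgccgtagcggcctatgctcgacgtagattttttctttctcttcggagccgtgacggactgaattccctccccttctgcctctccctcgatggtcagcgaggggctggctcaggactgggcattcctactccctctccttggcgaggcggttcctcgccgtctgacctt
The DUSP6 window holds GGAAG at positions -210 and -62 from the start, both on the opposite strand, and no GC box. The SPRY4 window holds 1 GC box, at position -183, and no GGAAG. Such short motifs are common, since GGAAG was found in 71.9% and GGGCGG in 44.9% of 34796 promoter windows. No window was found for DUSP4, DUSP5, ETV4, ETV5 and FOSL1. The other windows belong to PHLDA1, SPRED1 and SPRY2, 7 sequences in all for 5 genes. PHLDA1, SPRED1 and SPRY2 hold both GGAAG and the GC box in at least 1 window. A link between these motifs and the levels was not tested. None of the 7 holds the AP-1 site TGANTCA, the cyclic AMP response element TGACGTCA or the CArG box, which are found in 7.73%, 1.84% and 1.3% of all windows. These are matches of letters and not measured binding.

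Among the 3 phosphatases, DUSP6 had the largest difference between the lines in size, and DUSP4 went the other way. DUSP6 was at 112 and 108 TPM in the RT112 Scr libraries and at 26.0 and 20.1 TPM in UM-UC-3. Every RT112 library was far above every UM-UC-3 library (110.0 ± 3.20 against 23.03 ± 4.14 TPM, SD, n = 2 each), with a log2 fold change of 2.26 (SE 0.14, adjusted p = 0.000955, limma). With siPAI-1 the levels were 107 and 105 TPM in RT112 and 21.5 and 22.3 TPM in UM-UC-3 (log2 fold change 2.27, SE 0.060, adjusted p = 0.000299). DUSP4 acts on ERK and JNK in the nucleus. It was at 12.5 and 14.1 TPM in RT112 and at 24.3 and 21.5 TPM in UM-UC-3 with Scr (log2 fold change -0.78, SE 0.12, adjusted p = 0.00864). In the siPAI-1 libraries the values were 18.4 and 14.6 TPM against 27.8 and 27.2 TPM (log2 fold change -0.74, SE 0.14, adjusted p = 0.0151). The difference in DUSP4 was thus smaller in size than that in DUSP6. DUSP5, a nuclear phosphatase specific for ERK, was at 24.95 and 22.2 TPM in RT112 and at 30.1 and 27.1 TPM in UM-UC-3 with Scr. PAI-1-depleted cells had values of 23.95 and 22.8 TPM against 28.2 and 26.6 TPM. The RT112 values were the lower ones in both pairs of groups, but DUSP5 was called in neither (log2 fold changes -0.28 and -0.23, adjusted p = 0.102 and 0.0789).

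Among the inhibitors upstream of RAF, SPRY4 was the gene with the lowest level in RT112. It was at 2.91 and 3.15 TPM with Scr, by far under the 14.2 and 11.4 TPM of UM-UC-3 (3.03 ± 0.17 against 12.8 ± 1.99 TPM, SD, n = 2 each). The log2 fold change was -2.04 (SE 0.18, adjusted p = 0.00192, limma). The RT112 Scr values rest on about 316 and 334 reads, an upper estimate. At the estimated depth this alone gives a counting error of at least 5.63% and 5.47%. With siPAI-1, SPRY4 was at 3.79 and 4.07 TPM in RT112 and at 15.6 and 14.9 TPM in UM-UC-3 (log2 fold change -1.93, SE 0.12, adjusted p = 0.00103). SPRY2, the other Sprouty gene, differed less. Its Scr levels were 13.4 TPM in both RT112 libraries and 21.1 TPM in both UM-UC-3 libraries (log2 fold change -0.65, SE 0.084, adjusted p = 0.00522). With siPAI-1 they were 12.6 and 13.8 TPM against 17.7 and 23.1 TPM (log2 fold change -0.61, SE 0.17, adjusted p = 0.0429), a call lost without the trend in limma's variance (0.0794). The UM-UC-3 siPAI-1 libraries were farther apart than those of any other group for this gene. SPRED1, which recruits the RAS inactivator neurofibromin to the membrane, was at 9.69 and 8.14 TPM in RT112 and at 12.7 and 10.8 TPM in UM-UC-3 with Scr. It was not called (log2 fold change -0.39, SE 0.16, adjusted p = 0.116). With siPAI-1 it was at 9.02 and 9.08 TPM against 14.5 and 13.7 TPM and was called lower in RT112 (log2 fold change -0.63, SE 0.10, adjusted p = 0.0101). All 3 inhibitors were thus lower in RT112 in both pairs of groups, with SPRED1 called only with siPAI-1. The test of a difference between the pairs is the interaction given further on, which called no gene.

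The PEA3 factors ETV4 and ETV5 stood in opposite order in the lines. ETV4 was at 66.1 and 65.4 TPM in RT112 and at 13.97 and 20.7 TPM in UM-UC-3 with Scr (65.8 ± 0.54 against 17.3 ± 4.77 TPM, SD, n = 2 each). The log2 fold change was 1.94 (SE 0.21, adjusted p = 0.00331, limma), and the UM-UC-3 libraries were the more variable ones. After PAI-1 depletion the levels were 75.9 and 67.3 TPM against 16.8 and 17 TPM (log2 fold change 2.07, SE 0.087, adjusted p = 0.000529). ETV5 was at 18.6 and 11.3 TPM in RT112 and at 25.9 TPM in both UM-UC-3 libraries with Scr. The RT112 libraries were both lower but far apart, and ETV5 was not called (log2 fold change -0.83, SE 0.27, adjusted p = 0.0643). With siPAI-1 it was at 11.7 and 10.3 TPM against 24.4 and 23.04 TPM, and it was called (log2 fold change -1.10, SE 0.11, adjusted p = 0.00269). With Scr, ETV5 passed the threshold in a fit over all 8 libraries (adjusted p = 0.0147), among genes whose mean reached 1 TPM (0.0259) and with the replicate number as a block (0.0422). Its log2 fold change with Scr ranged from -1.19 to -0.47 when single libraries were left out. With siPAI-1 it ranged from -1.19 to -1.01, and the call was lost without either UM-UC-3 library.

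FOSL1 was the gene with the highest level of the 10 in UM-UC-3. It was at 305 and 300.5 TPM there with Scr and at 74.7 and 67.6 TPM in RT112 (303 ± 3.07 against 71.2 ± 5.02 TPM, SD, n = 2 each). The log2 fold change of RT112 over UM-UC-3 was -2.09 (SE 0.067, adjusted p = 0.000342, limma), and the groups lay far apart. With siPAI-1 it was at 52.9 and 71.4 TPM in RT112 and at 323 and 333 TPM in UM-UC-3 (log2 fold change -2.41, SE 0.16, adjusted p = 0.00109). PHLDA1 was among the 3 highest genes of both lines and differed little between them. It was at 76.3 and 73.1 TPM in RT112 and at 85.6 and 77.1 TPM in UM-UC-3 with Scr (log2 fold change -0.12, SE 0.076, adjusted p = 0.266). With siPAI-1 it was at 77.5 and 78.7 TPM against 91.4 and 90.7 TPM and was called, at a difference of 1.17-fold (log2 fold change -0.22, SE 0.049, adjusted p = 0.0235). This call was lost with the replicate number as a block (adjusted p = 0.0579) and without the trend in limma's variance (0.142). It was also lost without either UM-UC-3 siPAI-1 library, and in each fit over the 7 libraries left without a siPAI-1 library.

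**Figure D2:**
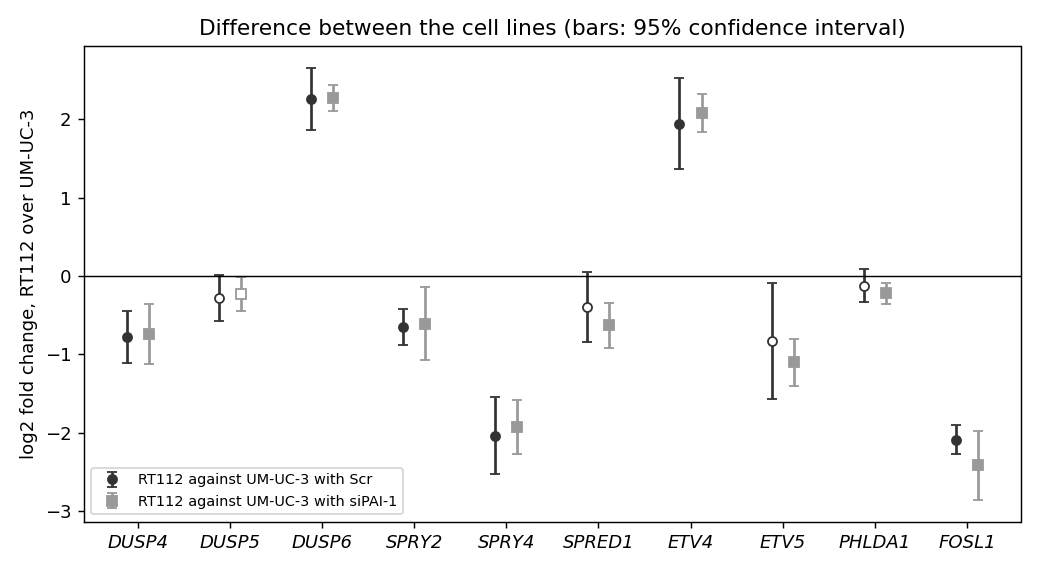
Log2 fold change of RT112 over UM-UC-3 for each of the 10 genes, with Scr (black circles) and with siPAI-1 (grey squares). Bars are 95% confidence intervals and filled symbols have an adjusted p under 0.05. DUSP6 and ETV4 lie above 0 and the other 8 genes below it in both comparisons, with SPRY4 and FOSL1 the lowest.

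These calls depend on how the spread is estimated, since each group has 2 libraries. Leaving out 1 RT112 Scr library and refitting the other 3 Scr libraries left 0 of the 10 genes called higher (DUSP6 adjusted p = 0.0583 without replicate 1 and 0.0575 without replicate 2, ETV4 0.105 and 0.104). FOSL1, SPRY2 and ETV5 were then called lower, and SPRY4 was not. The log2 fold change of SPRY4 was -1.98 without replicate 1 and -2.09 without replicate 2, and that of ETV5 was -1.19 and -0.47. A lone RT112 library is here assumed to vary like the UM-UC-3 libraries, which were both at 25.9 TPM for ETV5. DUSP4 lost its call whichever of the 4 Scr libraries was left out (adjusted p from 0.076 to 0.096). With siPAI-1, leaving out either UM-UC-3 library left SPRY4 as the 1 gene called lower, and FOSL1 had an adjusted p of 0.0654 or 0.0656, while DUSP6 and ETV4 were still called. SPRY2 and SPRED1 lost their call without any 1 of the 4 siPAI-1 libraries. Without RT112 siPAI-1 replicate 1, the library that stood apart, 2 genes were called higher and 5 lower, and the log2 fold change was -2.20 for FOSL1, -0.90 for DUSP4 and 1.99 for ETV4. In the fit over the other 7 libraries, added after seeing the data, DUSP6, ETV4, FOSL1, SPRY4 and DUSP4 were called whichever library was left out. The log2 fold change with Scr stayed between 2.08 and 2.45 for DUSP6 and between 1.66 and 2.23 for ETV4.

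The order of the levels within a line followed from these differences. In the RT112 Scr libraries the order from the top was DUSP6, PHLDA1, FOSL1, ETV4, DUSP5, ETV5, SPRY2, DUSP4, SPRED1 and SPRY4. The libraries of PHLDA1 and FOSL1 overlapped, as did those of ETV5 and SPRY2 and of SPRY2 and DUSP4. In the UM-UC-3 Scr libraries it was FOSL1, PHLDA1, DUSP5, ETV5, DUSP6, DUSP4, SPRY2, ETV4, SPRY4 and SPRED1. Here the neighbours ETV5 and DUSP6, DUSP6 and DUSP4, ETV4 and SPRY4, and SPRY4 and SPRED1 overlapped. DUSP6 thus stood at the top in one line and in the middle in the other. The 10 genes summed to 411 and 386 TPM in RT112 and to 559 and 536 TPM in UM-UC-3 with Scr, and FOSL1 alone made up 18.2% and 17.5% of this sum in RT112 and 54.6% and 56.0% in UM-UC-3. Without FOSL1 the sum was higher in RT112, at 337 and 318 TPM against 254 and 236 TPM.

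Ratios of related genes within a library do not depend on how the library is scaled. With Scr, ETV4 stood to ETV5 as 3.55 and 5.80 to 1 in RT112 and as 0.54 and 0.80 to 1 in UM-UC-3. DUSP6 stood to DUSP4 as 8.96 and 7.62 to 1 in RT112 and as 1.07 and 0.934 to 1 in UM-UC-3. For SPRY2 to SPRY4 the ratios were 4.59 and 4.26 in RT112 and 1.48 and 1.85 in UM-UC-3. FOSL1 to DUSP6 had the widest gap, 0.665 and 0.627 against 11.7 and 14.9. For each of these pairs all 4 RT112 libraries lay on one side of all 4 UM-UC-3 libraries. With siPAI-1 the ratio of SPRY2 to SPRY4 was 3.32 and 3.40 in RT112 and 1.14 and 1.55 in UM-UC-3, and the ratio of DUSP6 to DUSP4 was 5.83 and 7.16 in RT112 and 0.776 and 0.822 in UM-UC-3. Both siPAI-1 values of DUSP6 to DUSP4 were under both Scr values in each line. These pairs were chosen with the levels known, so the ratios are a description.

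**Figure D3:**
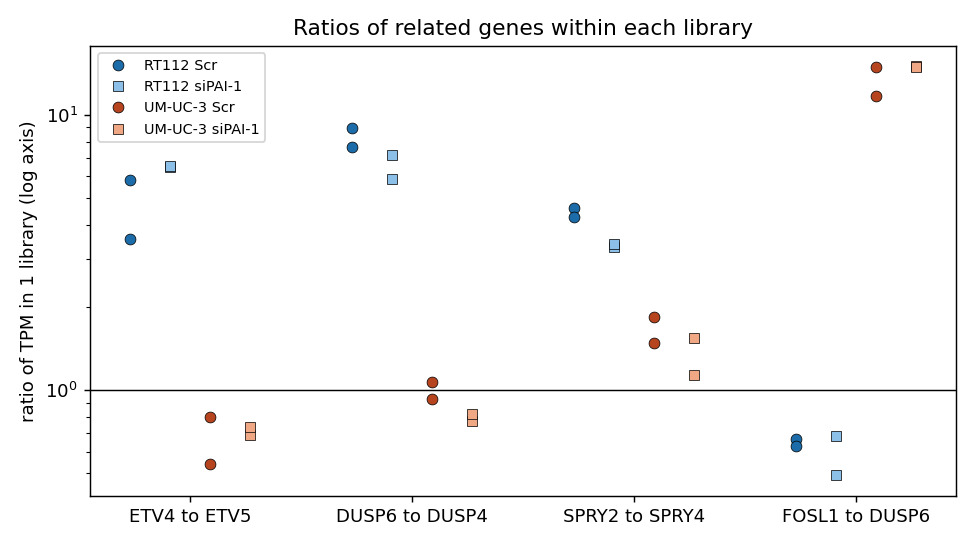
Ratio of the TPM of 2 genes within each library (log axis, black line at 1) for 4 pairs, with circles for Scr, squares for siPAI-1, blue for RT112 and red for UM-UC-3. The RT112 libraries are above 1 and the UM-UC-3 libraries below 1 for ETV4 to ETV5, and the order of the lines is turned for FOSL1 to DUSP6.

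The wider list of 44 other ERK output and feedback genes was also split between the lines. It was drawn up by name with earlier results of these data known, and it also holds regulators of RAS. Whether its genes follow ERK in these lines was not tested. Its shares of called genes are thus a description, and those of all genes also cover genes near 0 TPM. Of the 19201 genes tested with Scr, 12769 had a mean of at least 1 TPM. Of the 44 genes, 13 were higher and 21 lower in RT112 with Scr and 10 were not called (77.3% called against 51.6% of all genes, median log2 fold change -0.31). In this list, 9 of the higher and 16 of the lower genes passed 2-fold (56.8% against 32.1% of all genes). Those with the smallest p among the higher ones were PHLDA3, a relative of PHLDA1, EMP1, an epithelial membrane protein, DUSP9, a cytoplasmic ERK phosphatase like DUSP6, and AREG, the EGFR ligand amphiregulin. DUSP9 was at 33.8 and 35.8 TPM in RT112 and at 0.80 and 0.77 TPM in UM-UC-3. AREG was at 31.0 and 32.7 TPM against 0.60 and 0.30 TPM, and PHLDA3 at 153 and 154 TPM against 0.18 TPM in both UM-UC-3 libraries. These 3 genes were thus below 1 TPM in both UM-UC-3 Scr libraries. EMP1 was at 433 and 419 TPM in RT112 and at 115 and 116 TPM in UM-UC-3.

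Among the lower ones, the smallest p belonged to CCND1 (cyclin D1), DUSP1, a nuclear phosphatase of several MAP kinases, JUN, a subunit of AP-1, and SPRED2, a relative of SPRED1. DUSP1 was at 6.18 and 5.60 TPM in RT112 and at 35.3 and 29.5 TPM in UM-UC-3. JUN was at 75.4 and 70.3 TPM against 198 and 176 TPM. CCND1 was at 173 TPM in both RT112 libraries against 389 and 358 TPM, and SPRED2 at 22.4 and 21.8 TPM against 49.6 and 46.8 TPM. Adjusted p-values of these 8 genes were at most 0.00101 (limma).

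The share of cascade genes called is set here against that of all genes, which also covers genes near 0 TPM. Of 24 genes from adaptors and RAS to MEK, ERK and their direct targets, 5 were higher and 9 lower in RT112 with Scr and 10 were not called (58.3% called against 51.6% of all genes, median log2 fold change -0.15), and 1 higher and 3 lower passed 2-fold (16.7% against 32.1% of all genes). ELK3, an ETS factor of the ternary complex family, was at 34.7 and 32.1 TPM in RT112 and at 237 and 230 TPM in UM-UC-3 (adjusted p = 0.000274). MAP2K2, which encodes MEK2, was at 73.8 and 70.7 TPM against 164 and 151 TPM, and KSR1, a scaffold of RAF and MEK, at 14.1 and 23.5 TPM against 42.1 and 45.6 TPM. RPS6KA1, the ERK substrate RSK1, was the 1 higher gene, at 28.8 and 29.1 TPM against 12.5 and 9.48 TPM. Upstream, the receptors FGFR3 and EGFR were both higher in RT112 with Scr. FGFR3 was at 130.5 and 131 TPM in RT112 and at 2.21 and 1.78 TPM in UM-UC-3. EGFR was at 72.3 and 71.4 TPM against 35.99 and 35.1 TPM. The part of these receptors in the differences between the lines was not tested.

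After PAI-1 depletion none of the 10 genes passed the test in either line. In RT112 their ratios of siPAI-1 to Scr lay between 0.759 (ETV5) and 1.29 (SPRY4), with adjusted p-values from 0.838 to 0.988 (limma), and 0 of 10 had an unadjusted p under 0.05. In UM-UC-3 the ratios lay between 0.916 (ETV5) and 1.2 (SPRED1 and DUSP4), with limma adjusted p-values from 0.818 to 0.996. DUSP4 was the 1 gene with an unadjusted p under 0.05 in limma, at 0.0396 before and 0.818 after adjustment. No gene at all was called in either line, so the share of all genes called was 0% in both, while 1063 of 18437 genes (5.77%) in RT112 and 1114 of 18528 (6.01%) in UM-UC-3 had an unadjusted p under 0.05. The 95% confidence intervals of the 10 ratios reached from 0.465 to 1.96 in RT112 and from 0.697 to 1.54 in UM-UC-3. A change of 2-fold or more in any single gene thus lay outside its interval in UM-UC-3, and in RT112 outside all of them except that of ETV5 on its lower side. Smaller changes lay within some of the intervals, whose width differed between genes.

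**Figure D4:**
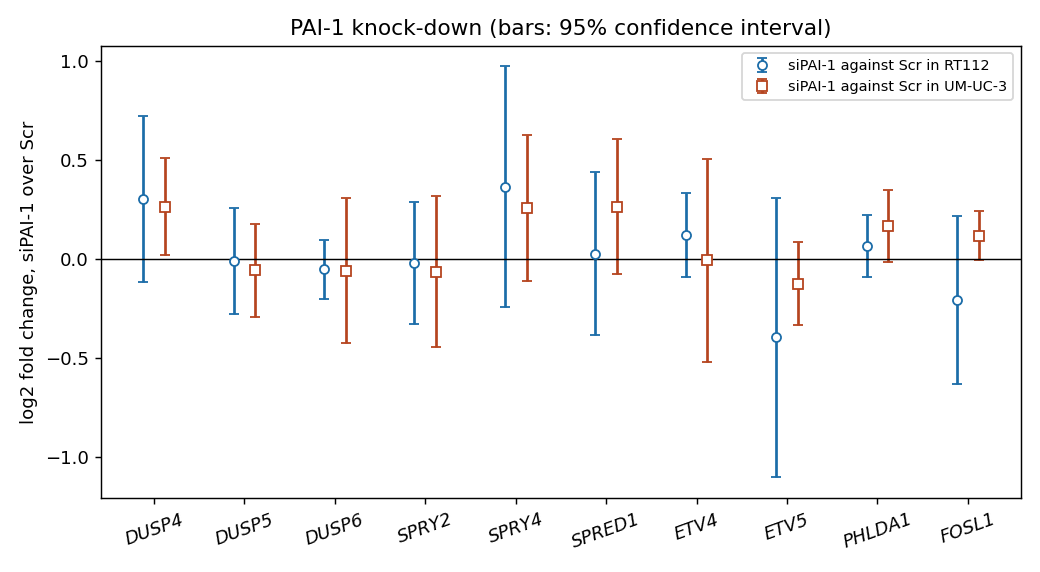
Log2 fold change of siPAI-1 over Scr for the 10 genes in RT112 (blue circles) and UM-UC-3 (red squares). Bars are 95% confidence intervals, and open symbols show that no gene had an adjusted p under 0.05. The 10 genes lie between -0.40 and 0.36, and all intervals include 0 except that of DUSP4 in UM-UC-3.

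Some genes were separated between siPAI-1 and Scr without being called. In RT112, DUSP4, SPRY4, ETV4 and PHLDA1 were higher with siPAI-1 in both libraries than in both Scr libraries, and DUSP6 was lower. The groups did not overlap for 32.7% of all genes tested in RT112, 18% higher and 14.7% lower, and for 37.3% of genes whose mean reached 1 TPM. In UM-UC-3, DUSP4, SPRY4, SPRED1, PHLDA1 and FOSL1 were higher without overlap and ETV5 was lower, against 32.2% of all genes, 15.1% higher and 17.1% lower, and 37.8% of genes whose mean reached 1 TPM. DUSP4, SPRY4 and PHLDA1 were higher without overlap in both lines at once, as were 3.04% of the 16691 genes tested in both, and these 3 genes were picked out after their values were seen. DUSP4 had a log2 fold change of 0.30 (SE 0.16) in RT112 and of 0.26 (SE 0.095) in UM-UC-3. SPRY4 had 0.36 (SE 0.23) and 0.26 (SE 0.14). PHLDA1 had 0.065 (SE 0.060) and 0.16 (SE 0.071). In the mean of both lines over all 8 libraries, a comparison added after these values were seen, the 3 genes had log2 fold changes of 0.28, 0.31 and 0.11 with unadjusted p of 0.0231, 0.0267 and 0.0425 (limma). Their adjusted p-values were 0.727, 0.727 and 0.756, so none was called, and 0 of 20274 genes were called (1309 or 6.46% at an unadjusted p under 0.05). Without RT112 siPAI-1 replicate 1 the log2 fold change of DUSP4 in RT112 was 0.14, that of SPRY4 was 0.41 and that of PHLDA1 was 0.077, and in the mean of both lines they were 0.20, 0.34 and 0.12. That of ETV4 in RT112 was then 0.034, the lowest of a range up to 0.21 when single libraries were left out.

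ETV5 and FOSL1 had the lowest ratios of siPAI-1 to Scr in RT112, and each turned on 1 library. ETV5 was at 18.6 and 11.3 TPM with Scr and at 11.7 and 10.3 TPM with siPAI-1, and the groups overlapped (log2 fold change -0.40, SE 0.27). Without Scr replicate 1 the log2 fold change was -0.037. FOSL1 was at 74.7 and 67.6 TPM with Scr and at 52.9 and 71.4 TPM with siPAI-1 (log2 fold change -0.21, SE 0.16). The low value belongs to the library that stood apart, and without it the log2 fold change was 0.0075. In UM-UC-3, FOSL1 was higher in both siPAI-1 libraries (log2 fold change 0.12, SE 0.048). DUSP5, DUSP6 and SPRY2 had log2 fold changes between -0.06 and -0.01 in both lines.

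The test of a difference between the lines in their response gave no call either. The interaction of siRNA and line, RT112 minus UM-UC-3, had adjusted p-values from 0.846 to 0.994 for the 10 genes, with 0 of 10 at an unadjusted p under 0.05 (limma, 0 of 20274 genes called and 1370 or 6.76% at an unadjusted p under 0.05). FOSL1 had the smallest unadjusted p of the 10, 0.130, at a log2 difference of -0.33 (SE 0.19), which was -0.11 without RT112 siPAI-1 replicate 1. Of the 44 other ERK output genes and the 24 cascade genes, 0 were called in either line after PAI-1 depletion, with 5 and 2 of them at an unadjusted p under 0.05 in RT112 and 1 and 2 in UM-UC-3.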

How the data were processed

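RNA-seq values of 8 libraries were used, in 4 groups taken from the labels. The authors trimmed reads with cutadapt and aligned them with STAR to GRCh38. The submitters' notes name STAR 2.5.0 and RSEM 1.2.25, and the column names of the TPM and FPKM values end as those of RSEM output do. The methods name featureCounts for gene counts. The deposited TPM and FPKM values are rounded to 2 decimals. The study compared groups with DESeq2 on counts, which were not used here. Of 27567 entries, 92 ERCC spike-ins, all at 0, were left out.

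Genes listed above 0 in any library of a comparison were tested with limma 3.58.1 in R 4.3.3 (two-sided, moderated by eBayes with a trend) after adding 0.1 and taking log2, which understates changes of low genes. Benjamini-Hochberg adjustment ran over all genes tested. The fit was tested on simulated data. Depth was estimated from steps in the FPKM values between 20 and 45 M reads, where a factor of 2 is ambiguous, and reads per gene are upper estimates that cover counting error only. Plots were drawn with matplotlib 3.10.9, and summaries used pandas 2.3.3 and numpy 2.4.6 in Python 3.11.15.

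One gene that the naming rule covers is not reported here. The 10 genes and the lists were chosen with earlier results of these data known. Named are all 10 genes, FGFR3 and EGFR, up to 4 other ERK output genes in each direction and up to 4 cascade genes, smallest p first among those at least 2-fold different between the lines with Scr and with an adjusted p under 0.05. As alternatives, the pseudocount was set to 1 or 0.01 TPM, FPKM was used, libraries were rescaled by median ratios, genes were limited to those whose mean reached 1 TPM, all 8 libraries were fitted at once, the replicate number was added as a block, the variance trend was dropped, and single replicates were left out. Added after seeing the data were the leave-one-out fits over the other 7 libraries and the mean effect over both lines.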

Additional observations from a re-analysis of the deposited data

How the results depend on the processing

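Of 964 values under alternatives, for 68 results, 869 kept their direction and their side of the threshold, or moved by less than the limit set for counts and values. Many of these results concern PAI-1 depletion, where none of the 10 genes was called from the start. The share kept thus does not measure how stable the calls between the lines were. With Scr, 7 rather than 4 of the 10 genes were called lower in RT112 in 1 fit over all 8 libraries, and the 3 added calls were DUSP5, SPRED1 and ETV5. Leaving out each replicate in the fit of the other 3 Scr libraries, where a lone library is assumed to vary like the other group, gave 0 to 2 of the 10 genes called higher and 3 lower, and 2975 to 3120 genes called higher and 2655 to 3589 lower of all genes, against 4850 and 5059. In the libraries with siPAI-1 the same gave 2 of the 10 genes higher and 1 to 5 lower, and 2492 to 3904 genes higher and 2802 to 3238 lower, against 5064 and 5044. Fewer libraries in the fit leave fewer degrees of freedom. In the fits over the other 7 libraries, 2 of the 10 genes were called higher throughout, and 4 to 7 were called lower with Scr and 5 to 6 with siPAI-1.

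For PAI-1 depletion, 0 of the 10 genes were called under each alternative. Over all genes, 2 were called higher in RT112 in 1 fit over all 8 libraries and 1 lower in UM-UC-3 among genes whose mean reached 1 TPM, against 0. The interaction gave 4 higher and 3 lower without trend, and 0 to 101 higher and 0 to 42 lower with each replicate left out. The mean over both lines gave 11 higher and 6 lower without trend, and 0 to 101 higher and 0 to 17 lower with each replicate left out. The cause was not tested. Genes near 0 turned in sign when 1 library was left out. In RT112, SPRY2 ranged from -0.086 to 0.048, FOSL1 from -0.43 to 0.0075, DUSP5 from -0.093 to 0.074 and SPRED1 from -0.098 to 0.15 on the log2 scale. In UM-UC-3, SPRY2 ranged from -0.26 to 0.13, DUSP5 from -0.13 to 0.018, DUSP6 from -0.24 to 0.12 and ETV4 from -0.29 to 0.27.

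Same-numbered libraries did not deviate together (correlations from -0.043 to 0.098 over 12803 genes), so no shared effect of the replicate number was seen. This cannot tell whether same-numbered libraries came from the same experiment. With the replicate block, ETV5 was called with Scr (adjusted p = 0.0422), PHLDA1 was not called with siPAI-1 (0.0579), and none of the 10 genes otherwise changed its call. The 2 libraries per group limit all tests, and SPRY4 in RT112 has the fewest reads of the 10 genes.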
